A study of Mus musculus with 9 samples.

Results

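Libraries 3, 6 and 9 of a series of 9 poly(A) RNA libraries were set against libraries 1, 4 and 7, so that 6 of the 9 libraries entered the comparison. A library is called here by the last number of its title. The libraries were joined in 3 pairs, 1 with 3, 4 with 6 and 7 with 9, by position within the runs of titles 1 to 3, 4 to 6 and 7 to 9, and no measured value chose them. All of them come from D2.0R (also spelled D2.OR), a mouse mammary gland adenocarcinoma line that is used as a model of tumour dormancy. The cells carried CellTrace Far Red (CTFR), a dye shared out between daughter cells, and grew for 1 week in DMEM with 2% serum before flow sorting by the dye. One description, shared by every library, names dye-positive, bulk and dye-negative samples numbered 1 to 3, and the labels tie no library to any of these. If the titles followed the order of that description, libraries 3, 6 and 9 would each be the last and libraries 1, 4 and 7 the first sample of a kind, but no label says so, and neither set is read here as a sorted fraction. Nothing in the labels says whether the libraries came from separate cultures, so every p-value measures only the spread between these libraries, which may be technical.

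Cells of this kind are usually described by a few linked programmes. A growing cell makes ribosomes, lipids and cell cycle proteins, and a resting one holds these down through cyclin-dependent kinase inhibitors and RB. Growth factors such as the ligands of the EGF receptor start the immediate early response, a brief rise of transcription factors of the FOS, JUN and ATF families. Efflux pumps of the ABC family export dyes, drugs and lipids and are commonly used to mark side populations of tumour cells.

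Library 9 was the shallowest, with 18732737 estimated counts, and library 7 the deepest, with 41243036, and 13095 to 14382 genes per library had at least 10 counts. Mitochondrial genes held 1.91%, 2.05% and 1.70% of the counts in libraries 1, 4 and 7 and 1.31%, 1.61% and 1.93% in libraries 3, 6 and 9, so the sets overlapped and the last pair ran against the other two. Long non-coding RNA held 0.949%, 0.804% and 0.748% in libraries 1, 4 and 7 and 0.987%, 0.985% and 1.01% in libraries 3, 6 and 9, and here the sets did not overlap. In the 6 libraries compared, to which the marker values here refer, some markers of other cell types were absent and others were not. Of 7 NK cell markers, Ncr1, Klrk1, Klrd1, Gzma, Nkg7 and Prf1 had 0 counts in each of these libraries, and Klrb1c (NK1.1) stood at 1.33 to 2.90 CPM. Of 7 fibroblast markers, the receptor genes Pdgfra (224 to 545 CPM) and Pdgfrb (212.5 to 373 CPM) were expressed, while Dcn, Lum, Dpt, Pdpn and Thy1 had at most 18 counts. Among 6 endothelial markers 2 had enough counts to be tested, Egfl7 at 6.66 to 11.8 CPM and Vwf at 1.74 to 4.19 CPM. Cdh5 had 0 counts. Among 7 leukocyte markers 2 had enough counts to be tested, with Cd68 at 6.30 to 10.8 CPM. Ptprc, another leukocyte marker, had at most 2 counts, and the epithelial marker Epcam at most 6. Keratin genes Krt8 and Krt18 and the mesenchymal gene Vim were all detected, as described below.

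Levels are CPM, counts scaled to a common library size after TMM scaling, and a gene is said to be called, or to have risen or fallen, when its adjusted p was under 0.05 in edgeR's quasi-likelihood test with the pair as a block and Benjamini-Hochberg adjustment over 13986 genes. Libraries 3, 6 and 9 differed from libraries 1, 4 and 7 in 1807 genes, which is 12.9% of those tested. Of these, 856 genes (6.12%) were higher in libraries 3, 6 and 9 and 951 (6.8%) were lower. The differences were mostly small. The median called gene differed by 1.27-fold, 381 genes differed by at least 1.5-fold and 111 by at least 2-fold, 63 of them higher and 48 lower. Over all genes tested, 51.1% had the same direction in all 3 pairs, and in 21.6% all of libraries 3, 6 and 9 lay above or below all of libraries 1, 4 and 7. Among called genes 1186, or 65.6%, had sets that did not overlap.

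**Figure D1:**
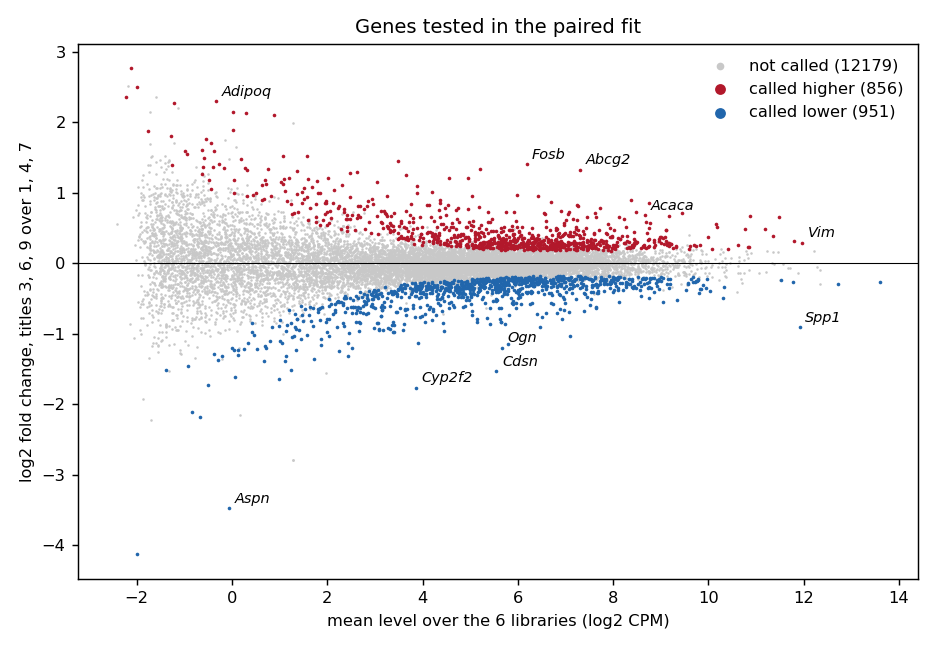
Log2 fold change of libraries 3, 6 and 9 over libraries 1, 4 and 7 (y axis) against the mean level over the 6 libraries in log2 CPM (x axis), 1 point for each of 13986 genes, with 856 genes called higher in red and 951 called lower in blue. Called genes lie mostly within 1 unit of 0, and Abcg2 and Fosb stand out above, Cdsn and Cyp2f2 below.

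These calls rest on the pairs. Without the replicate block no gene was called (0 higher and 0 lower, smallest adjusted p = 0.0511, edgeR), while 1912 genes had an unadjusted p under 0.05, against 4066 with the block. The coefficient of variation beyond counting noise was 6.45% with the block and 16.6% without it. Deviations of a library from its set's mean correlated across genes at 0.616 for libraries 1 and 3 and at 0.602 for libraries 7 and 9, but at 0.013 for libraries 4 and 6, and genes are not independent replicates. This measure is weak for libraries that lie near the middle of their set, as 4 and 6 did for Mki67, Ogn and Cx3cl1. It therefore does not show whether libraries 4 and 6 belong together beyond their place in the titles. Leaving that pair out lowered the counts to 462 higher and 481 lower genes, and leaving out the pair of libraries 7 and 9 raised them to 1478 and 1571.

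Several efflux and lipid transporters of the ABC family were higher in libraries 3, 6 and 9. Of 14 members tested, 7 rose and 1 fell, with a median log2 fold change of 0.21 against -0.005 over all genes tested. The fold change was positive in 9 members and negative in 5. Abcg2, the breast cancer resistance protein that pumps drugs and dyes out of cells, stood at 63.6, 105 and 105 CPM in libraries 1, 4 and 7 and at 180, 231 and 268.5 CPM in libraries 3, 6 and 9. Every library of the second set lay above every library of the first, and the log2 fold change was 1.33 ± 0.18 (SD of the 3 pair differences, adjusted p = 9.7e-05). Abcb1a, which encodes P-glycoprotein, the classical multidrug pump, gave 94.9, 120 and 115 CPM against 177, 209 and 197 CPM. Its log2 fold change of 0.83 ± 0.06 (SD, n = 3 pairs, adjusted p = 0.00018 from edgeR's fit) rested on sets that did not overlap. Abcb1b, the second mouse P-glycoprotein gene, rose by 0.61, although reads of such close copies are divided between them by likelihood. The cholesterol exporters Abcg1 and Abca1 rose by 0.79 and 0.52 on the log2 scale, Abcc5 by 0.28 and Abcd3, a peroxisomal importer, by 0.22. Abcc1, the multidrug resistance-associated protein, was the member that fell, by 0.34, from 195, 233 and 253.5 CPM to 162, 174 and 201 CPM. Leaving out 1 pair left between 5 and 9 members called higher. None was called lower without libraries 4 and 6, and 3 were without libraries 7 and 9.

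**Figure D2:**
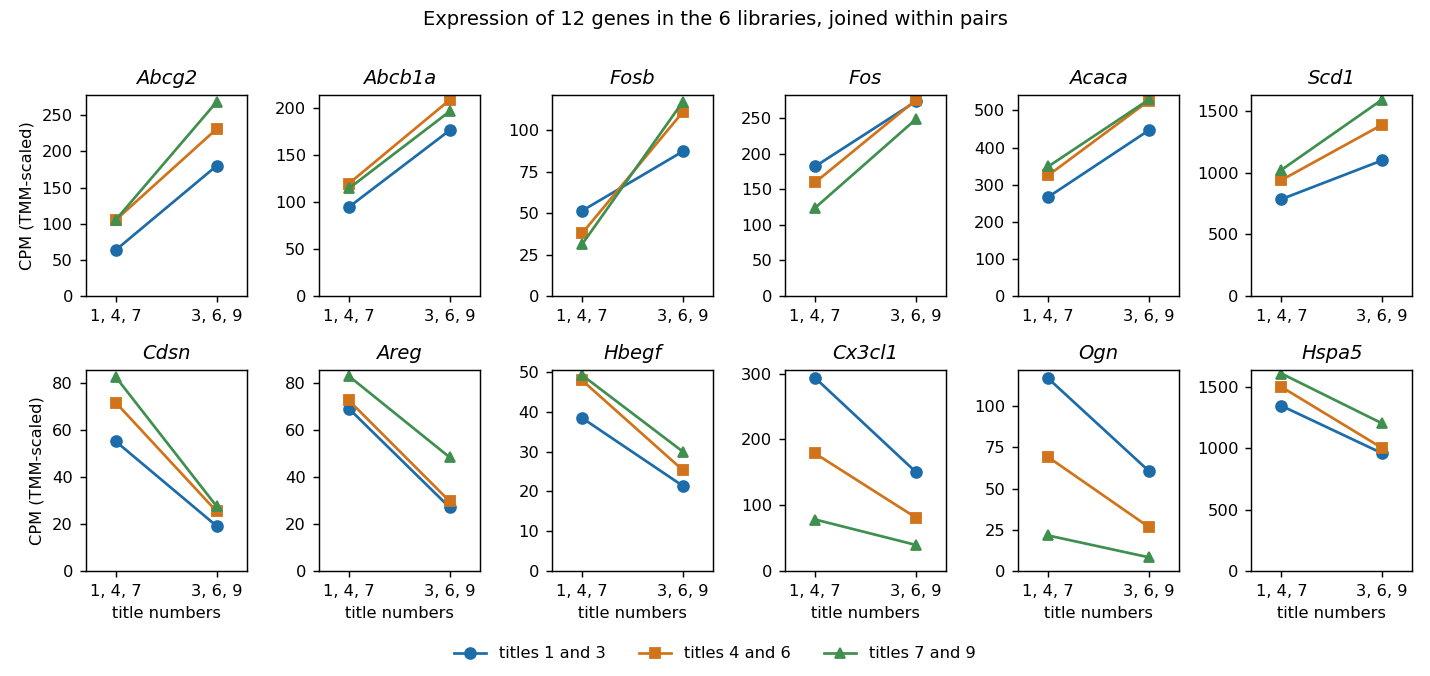
Level in CPM (y axis, from 0) of 12 genes in libraries 1, 4 and 7 (left of each panel) and 3, 6 and 9 (right), with lines joining the libraries of a pair. Each line rises in the upper row and falls in the lower row, and for Cx3cl1 and Ogn the pairs start from levels so different that the sets overlap.

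Genes of cholesterol and fatty acid synthesis were higher as well. Of 30 members tested, 16 rose and 0 fell, and all 30 had a positive fold change, with a median of 0.24 on the log2 scale. In only 7 of the 30 did the sets not overlap, beside 21.6% over all genes tested. Acaca, acetyl-CoA carboxylase, which commits carbon to fatty acids, stood at 267, 325 and 349 CPM in libraries 1, 4 and 7 and at 447, 526.5 and 529.5 CPM in libraries 3, 6 and 9. These sets did not overlap, and the log2 fold change was 0.68 ± 0.07 (SD of 3 pairs, adjusted p = 0.00037). Scd1, the desaturase that makes monounsaturated fats, went from 785, 939.5 and 1022 CPM to 1100, 1389 and 1593 CPM, a log2 fold change of 0.56 ± 0.08 (SD of 3 pairs). Fasn (fatty acid synthase) rose by 0.52, Elovl6 (chain elongation) by 0.45 and Acly (ATP citrate lyase) by 0.26. In the sterol branch, Idi1 rose by 0.46, Cyp51 and Fdft1 by 0.36 each and Tm7sf2, a sterol reductase, by 0.63, while Hmgcs1 at the head of the pathway rose by 0.28. Insig1, a brake on SREBP, rose by 0.50. Srebf1 and Srebf2, the genes of the SREBP factors, had log2 fold changes of 0.15 and 0.01 and were not called. The list's median difference was 0.34 in libraries 3 over 1, 0.26 in 6 over 4 and 0.13 in 9 over 7. Its count of higher members was 26 without libraries 7 and 9 and 11 without libraries 4 and 6, and 0 members were lower in either case.

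Ribosomal genes moved the other way. Of 28 cytosolic ribosomal protein genes tested, 17 fell and 0 rose. All 28 had a negative fold change, with a median of -0.27, and in 19 of them the sets did not overlap. Rpl13 of the large subunit stood at 949, 1034 and 1070.0 CPM in libraries 1, 4 and 7 and at 817, 827 and 643 CPM in libraries 3, 6 and 9 (log2 fold change -0.42 ± 0.27, SD of 3 pairs, adjusted p = 0.022). Rplp0, a stalk protein often used as a reference gene, gave 760.0, 827 and 924.5 CPM against 647, 662 and 624 CPM. The share of all counts in genes with an Rpl or Rps symbol was 2.76%, 2.94% and 3.05% in libraries 1, 4 and 7 and 2.49%, 2.49% and 2.43% in libraries 3, 6 and 9. Ribosome biogenesis genes, which build the particle in the nucleolus, moved in the same direction, with 11 of 24 lower, 0 higher and a median of -0.18. Rrp9, a U3 snoRNP protein, fell by 0.50, Nop16 by 0.48 and Polr1e, an RNA polymerase I subunit, by 0.38. Myc, the transcription factor known for driving these genes, went from 191, 203 and 196 CPM to 150, 151 and 135 CPM, with sets that did not overlap and a log2 fold change of -0.44 ± 0.10 (SD of 3 pairs, adjusted p = 0.0027). Without libraries 4 and 6 the counts of lower members were 9 ribosomal protein and 4 biogenesis genes.

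**Figure D3:**
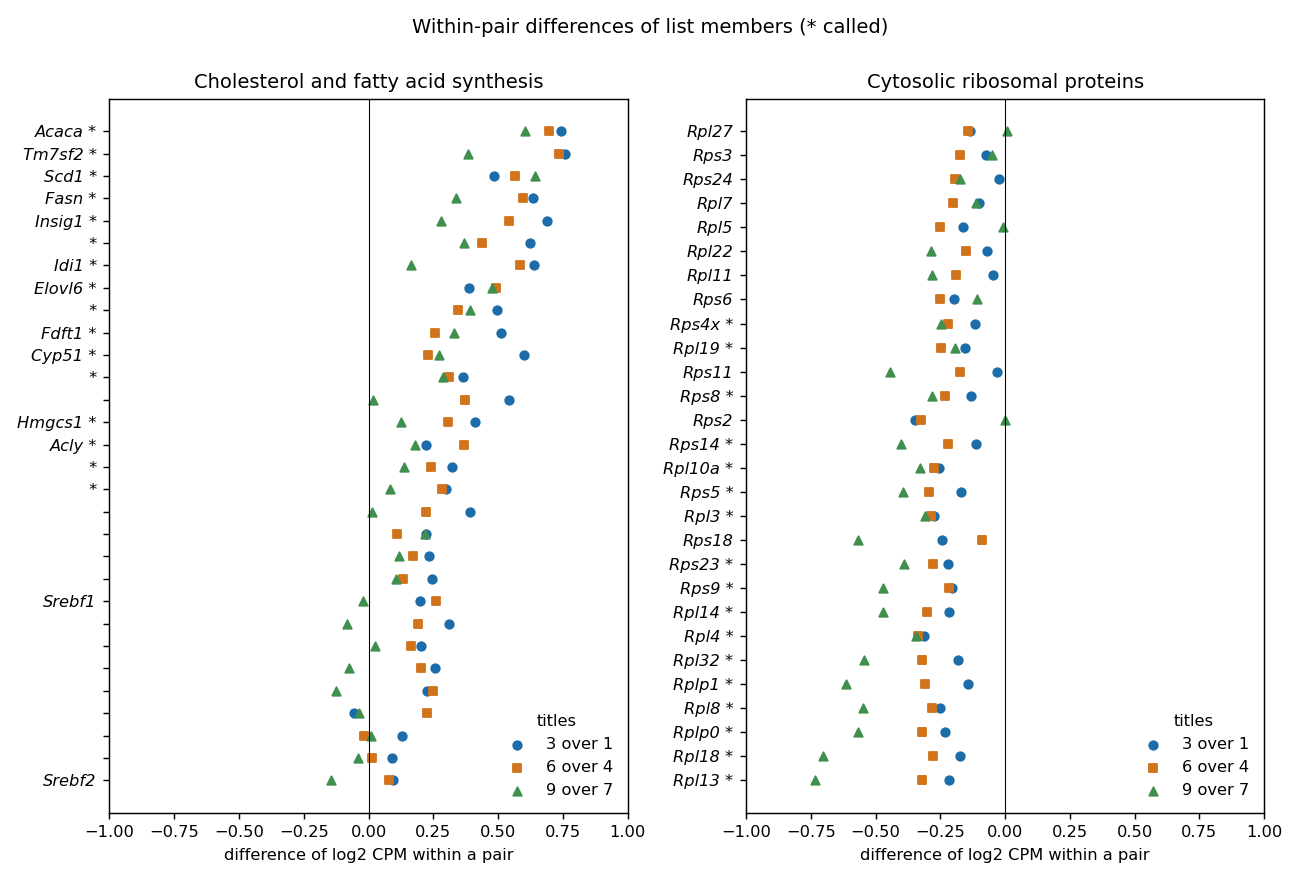
Difference of log2 CPM within each pair (x axis) for every tested member of the cholesterol and fatty acid synthesis list (left) and the ribosomal protein list (right), with stars on called genes and, on the left, names on the genes the text describes. Most lipid genes lie right of 0 in each pair, with libraries 9 over 7 giving the smallest median (0.13), and most ribosomal protein genes lie left of 0, with 9 over 7 giving the largest (-0.34).

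Base composition moved with these differences in the last pair, and transcript length in the last pair and in libraries 6 over 4. Over 5 equal groups of genes by GC content, from the poorest to the richest, the median difference of libraries 9 over 7 ran from 0.137 to -0.183, while in 3 over 1 it ran only from -0.003 to -0.018 and in 6 over 4 from 0.015 to -0.004. Over 5 groups by transcript length, from the shortest to the longest, it ran from -0.074 to 0.085 in libraries 9 over 7, from -0.048 to 0.046 in 6 over 4 and from -0.021 to 0.013 in 3 over 1. The share called higher ran from 2.47% in the shortest group to 11.9% in the longest. The share called lower ran from 3.62% in the GC-poorest group to 9.92% in the richest. From the lowest to the highest mean level the shares ran from 1.75% to 12% higher and from 1.5% to 9.92% lower. The shares over all genes are therefore not matched to any list. With length and GC as offsets in the fit, an alternative chosen after the data were seen, 15 of 28 ribosomal protein genes were lower with a median of -0.19, and 18 of 30 lipid genes were higher with a median of 0.26. With the same offsets, 7 of 14 ABC transporters were higher and 2 lower. Of the 110 called genes named by rule, Bach1 and Hmox1 lost their calls in that fit.

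**Figure D4:**
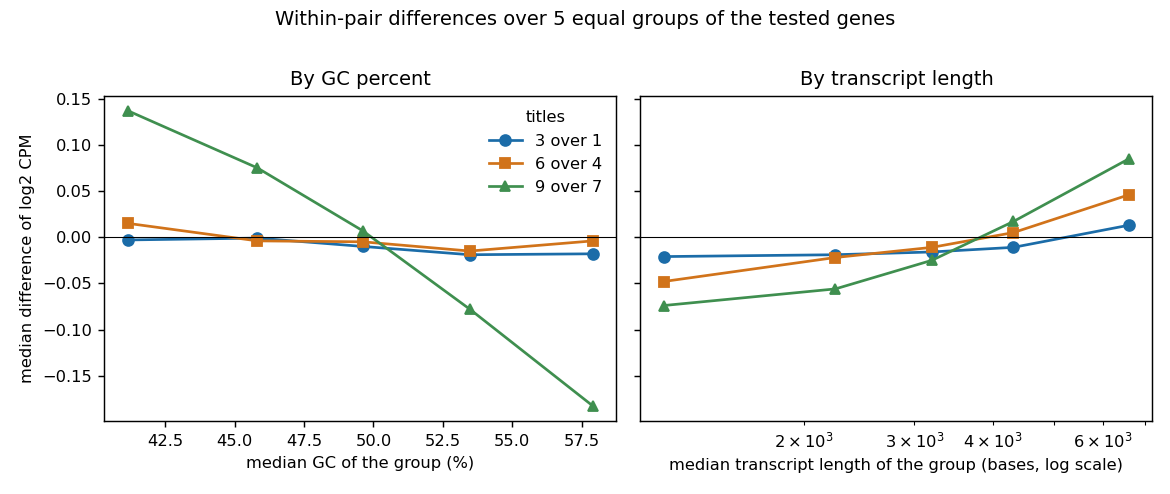
Median difference of log2 CPM within a pair (y axis) for 5 equal groups of the tested genes by GC content in percent (left) and by length of the longest transcript in bases on a log axis (right), 1 line per pair. Libraries 9 over 7 slope from 0.137 to -0.183 with GC while the other pairs stay within 0.02 of 0, and with length both 9 over 7 and 6 over 4 slope upward.

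Immediate early genes split. Of 23 tested, 5 rose and 5 fell. Fosb, a partner of JUN in AP-1, stood at 51.4, 37.8 and 31.1 CPM in libraries 1, 4 and 7 and at 87.3, 111 and 117 CPM in libraries 3, 6 and 9. The sets did not overlap, and the pairs differed widely, with a log2 fold change of 1.41 ± 0.59 (SD of 3 pairs, adjusted p = 0.0024). Fos gave 182, 160 and 124 CPM against 273.5, 275.5 and 248.5 CPM, a log2 fold change of 0.79. Zfp36, which destabilises cytokine mRNAs, rose by 0.72, the shear-responsive factor Klf2 by 0.54 and the nuclear receptor Nr4a1 by 0.49. In the opposite direction, Atf3, a stress-induced repressor, went from 14.8, 16.7 and 19.2 CPM to 9.45, 10.4 and 12.7 CPM with a log2 fold change of -0.64 ± 0.04 (SD of 3 pairs). Dusp5, a phosphatase of ERK, fell by 0.44, the AP-1 subunit Fosl1 by 0.29 and Ier3 by 0.24, with Myc as the other member that fell.

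Areg and Hbegf, ligands of the EGF receptor, fell, and the ligand gene Tgfa had a log2 fold change of -0.57 that was not called. Areg (amphiregulin) stood at 69.3, 72.8 and 83.1 CPM in libraries 1, 4 and 7 and at 27.1, 29.7 and 48.5 CPM in libraries 3, 6 and 9. All of the second set lay below the first, and the log2 fold change was -1.14 ± 0.32 (SD of 3 pairs, adjusted p = 0.0007). Hbegf, the heparin-binding ligand, gave 38.5, 48.0 and 49.3 CPM against 21.4, 25.4 and 30.0 CPM, again without overlap, with a log2 fold change of -0.83 ± 0.10 (SD of 3 pairs). Of 22 receptor kinases and growth factors tested, 4 rose and 3 fell. The receptor gene Erbb3 rose by 0.77, Igf1 by 0.51, Insr (the insulin receptor) by 0.33 and the collagen receptor Ddr1 by 0.30, while Erbb2 fell by 0.22. Erbb3 lost its call without libraries 4 and 6 and in the fit of all 9 libraries.

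The upstream sequences of Abcg2, which rose, and of Areg, Rpl13 and Rpl18, which fell, are shown because each holds the same motif. RefSeq windows were found for 89 of 129 genes named by rule. The motif is TGACGTCA, the palindromic element bound by ATF and CREB factors, searched on both strands in the 250 bases before the RefSeq start. It occurred in 3.11% of the 10031 tested genes with a window, in 3.58% of those called higher and 4.4% of those called lower, and in 1.77% of all 27025 windows. Each line gives the gene's position on GRCm38.p6 from RefSeq, its strand and the sequence 5′ to 3′ toward the gene, with the motif in capitals.
Abcg2, chr6:58640296-58640545, plus strand: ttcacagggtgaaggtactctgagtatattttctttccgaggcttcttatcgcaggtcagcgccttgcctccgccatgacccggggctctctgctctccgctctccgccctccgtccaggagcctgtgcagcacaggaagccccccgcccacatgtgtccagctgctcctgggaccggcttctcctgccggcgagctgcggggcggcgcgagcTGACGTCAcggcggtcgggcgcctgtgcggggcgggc
Areg, chr5:91139349-91139598, plus strand: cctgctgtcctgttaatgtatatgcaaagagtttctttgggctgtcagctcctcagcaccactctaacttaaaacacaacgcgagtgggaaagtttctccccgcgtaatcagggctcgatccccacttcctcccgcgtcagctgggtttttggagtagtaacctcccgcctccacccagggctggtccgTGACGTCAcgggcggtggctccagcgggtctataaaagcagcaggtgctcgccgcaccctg
Rpl13, chr8:123102100-123102349, plus strand: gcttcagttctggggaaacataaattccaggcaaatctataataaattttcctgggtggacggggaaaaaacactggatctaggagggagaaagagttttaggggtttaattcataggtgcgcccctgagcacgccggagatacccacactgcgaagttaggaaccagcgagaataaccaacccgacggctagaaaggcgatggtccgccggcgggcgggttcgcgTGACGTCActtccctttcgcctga
Rpl18, chr7:45717821-45718070, plus strand: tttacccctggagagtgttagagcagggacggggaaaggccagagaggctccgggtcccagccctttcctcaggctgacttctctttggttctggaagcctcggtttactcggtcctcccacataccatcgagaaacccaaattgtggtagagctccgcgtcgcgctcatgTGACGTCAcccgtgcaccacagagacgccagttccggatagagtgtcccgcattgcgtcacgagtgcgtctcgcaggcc
The motif begins 37 bases before the RefSeq start of Abcg2, 61 before that of Areg, 24 before that of Rpl13 and 79 before that of Rpl18. These are starts of single transcripts. In GENCODE, Abcg2 and Rpl18 also have transcripts that begin farther upstream, and the counts do not tell which start was used. Mcm5, which fell, holds the motif too, 99 bases before its RefSeq start, and its window is not shown because that start was not found at the beginning of a GENCODE transcript. The AP-1 motif TGANTCA, searched in the same way, was in 5.47% of tested genes with a window, in 4.83% of those called higher and in 9.52% of those called lower. A match is a description of the sequence, and no binding was measured.

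Genes of amino acid shortage and of the unfolded protein response, which raise chaperones and transporters when the endoplasmic reticulum is loaded, were lower. Of 29 tested, 10 fell and 1 rose, and the median was -0.17. Hspa5, the main chaperone of the endoplasmic reticulum (BiP), stood at 1347, 1501 and 1610.0 CPM in libraries 1, 4 and 7 and at 959.5, 1002 and 1203 CPM in libraries 3, 6 and 9. The sets did not overlap and the log2 fold change was -0.50 ± 0.08 (SD of 3 pairs, adjusted p = 0.0018). Ddit3 (CHOP), a stress-induced factor, went from 214, 271 and 282.5 CPM to 192, 208 and 179 CPM. Slc7a5 and Slc3a2, the subunits of the large amino acid exchanger, fell by 0.33 and 0.29, and Chac1, a glutathione-degrading enzyme, by 0.26. Dnajb9, a co-chaperone, was the member that rose, by 0.31. The number of lower members was 3 without libraries 4 and 6, 17 without libraries 7 and 9 and 5 in the fit of all 9 libraries.

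Glycolytic genes and targets of hypoxia were lower too. Of 27 tested, 11 fell and 1 rose, and 24 had a negative fold change, with a median of -0.22. In only 1 of the 27 did the sets not overlap. Slc16a3, the lactate exporter MCT4, stood at 36.5, 56.2 and 84.8 CPM in libraries 1, 4 and 7 and at 26.7, 46.2 and 53.6 CPM in libraries 3, 6 and 9. Each pair fell, but the sets overlapped, and the log2 fold change was -0.47 ± 0.19 (SD of 3 pairs, adjusted p = 0.0076). Ldha (lactate dehydrogenase) fell by 0.37, Pfkl (phosphofructokinase) by 0.38, Eno1 by 0.36, Tpi1 by 0.35, Pgk1 by 0.33 and Gapdh by 0.27. The hypoxia-induced genes Adm (adrenomedullin) and Car9 (carbonic anhydrase 9) fell by 1.21 and 1.13. Hk2, the inducible hexokinase at the entry to the pathway, was the member that rose, by 0.25. Without libraries 4 and 6, 7 members were lower and 0 higher.

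**Figure D5:**
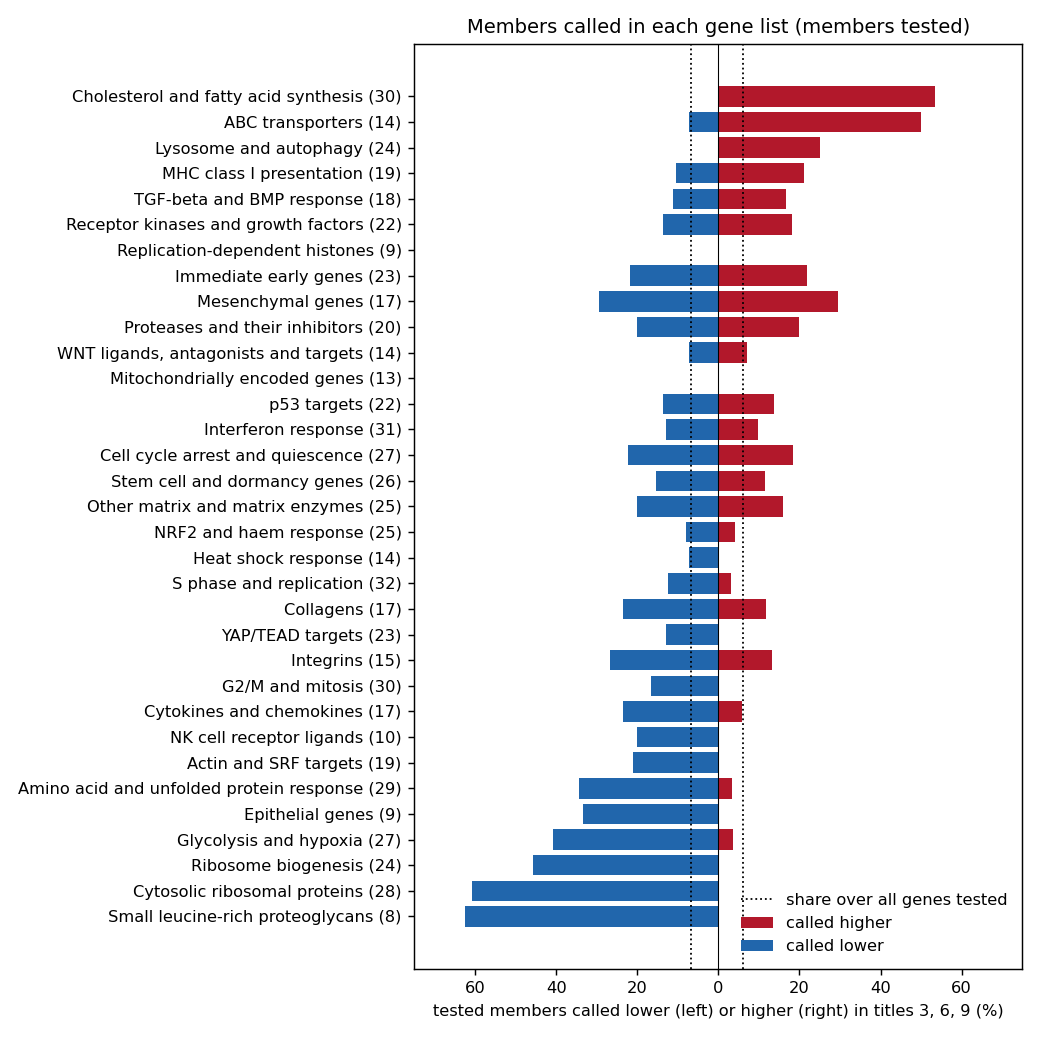
Percent of the tested members of each gene list called higher (red, right) or lower (blue, left) in libraries 3, 6 and 9, with the number tested in brackets and dotted lines at the shares over all genes tested (6.12% and 6.8%). The dotted lines are not matched to a list's transcript length, GC content or level. Lipid synthesis and ABC transporters stand farthest right, and proteoglycans and ribosomal proteins farthest left, of the lists with at least 8 tested members.

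Lysosomal and autophagy genes were slightly higher, with 6 of 24 called higher, 0 lower and a median of 0.13. Glb1, the lysosomal beta-galactosidase, stood at 154, 179 and 182 CPM in libraries 1, 4 and 7 and at 199, 227 and 203 CPM in libraries 3, 6 and 9, without overlap (log2 fold change 0.29 ± 0.12, SD of 3 pairs, adjusted p = 0.016). Hexa, Lamp2 and Ctsa, enzymes and a membrane protein of the lysosome, rose by 0.28, 0.26 and 0.25. None of the 6 was called without libraries 4 and 6, none in the fit of all 9 libraries, and 17 members were higher without libraries 7 and 9.

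Cell cycle genes of G2/M were mostly lower within pairs, although most were not called. Mki67, the Ki-67 proliferation antigen, stood at 5.54, 9.64 and 27.7 CPM in libraries 1, 4 and 7 and at 4.91, 9.09 and 23.6 CPM in libraries 3, 6 and 9, and it was not called (log2 fold change -0.17, adjusted p = 0.22, edgeR). Its level differed far more between pairs than within them. Of 30 G2/M genes, 5 fell and 0 rose. The median was -0.29, 28 were negative and 20 were lower in all 3 pairs, yet no member had sets that did not overlap. The members that fell were the cyclins Ccnb2 and Ccna2, the spindle genes Tpx2 and Prc1 and the topoisomerase Top2a. None of them was called without libraries 4 and 6 or in the fit of all 9 libraries, and DESeq2 called 2 members. Of 32 replication genes, Mcm2 and Mcm5 of the replicative helicase, its loader Cdt1 and the polymerase subunit Pold1 fell, by 0.32 to 0.66, and E2f2 rose by 0.91.

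Regulators of the G1 phase changed in both directions. Ccnd1 (cyclin D1), which carries growth signals to CDK4 and CDK6, stood at 133, 143 and 176 CPM in libraries 1, 4 and 7 and at 89.9, 92.4 and 125 CPM in libraries 3, 6 and 9. The sets did not overlap and the log2 fold change was -0.56 ± 0.07 (SD of 3 pairs, adjusted p = 0.00077), with 23.4% of its exonic bases opposite LTO1. Rb1, the retinoblastoma gene, rose from 36.0, 35.7 and 32.3 CPM to 55.2, 54.0 and 51.5 CPM, a log2 fold change of 0.63 ± 0.04 (SD of 3 pairs). Cdkn1a (p21) went from 9.33, 12.8 and 14.1 CPM to 12.3, 17.5 and 22.2 CPM, with overlapping sets but a rise in each pair (0.50 ± 0.14 on the log2 scale, SD of 3 pairs, adjusted p = 0.008). Cdkn2a, the locus of p16 and p19ARF, fell from 111, 126 and 138 CPM to 84.2, 88.5 and 78.1 CPM, and its neighbour Cdkn2b fell by 0.28. Cdkn1b (p27) was not called, at 0.11 on the log2 scale. Of the 27 genes of arrest and quiescence tested, 5 rose and 6 fell, with a median of 0.04. Ccng2 and Rbl2, both linked to rest, rose by 0.52 and 0.26, while Gas1 and Gas6, named for growth arrest, fell by 0.49 and 0.80. Of 22 p53 targets, 3 rose and 3 fell, among them Cdkn1a upward and Pmaip1 (NOXA), a pro-death member of the BCL2 family, downward by 1.10. The median of the p53 list was -0.04, and over all genes tested 6.12% were called higher and 6.8% lower.

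Small leucine-rich proteoglycans, which bind collagen and growth factors in the matrix, were mostly lower, with 5 of 8 tested members called lower, 0 higher and a median of -0.37. The fold change was positive in 1 member, at 0.97, which was higher in all 3 pairs with sets that did not overlap but was not called. Only Aspn had all of libraries 3, 6 and 9 below all of libraries 1, 4 and 7. Ogn (osteoglycin) stood at 117, 69.1 and 21.6 CPM in libraries 1, 4 and 7 and at 60.6, 26.6 and 8.27 CPM in libraries 3, 6 and 9. Levels differed more between pairs than within them, so the sets overlapped, and the log2 fold change was -1.20 ± 0.25 (SD of 3 pairs, adjusted p = 0.00033). Omd (osteomodulin) gave 268, 142 and 58 counts in libraries 1, 4 and 7 and 151, 45 and 22 in libraries 3, 6 and 9. Aspn (asporin) gave 88, 54 and 22 counts against 9, 4 and 2, and its fitted log2 fold change of -3.48 rests on these few counts. Its pair differences of log2 CPM, which depend on the prior count as well, were -3.29, -3.30 and -1.81. Podn and Prelp fell by 0.46 and 0.28.

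Other matrix genes went both ways. Of 17 collagen genes, Col1a1 and Col12a1 rose and 4 fell. Col3a1 stood at 644, 702 and 552 CPM in libraries 1, 4 and 7 and at 440, 463 and 387 CPM in libraries 3, 6 and 9, without overlap, and fell by 0.55 ± 0.05 on the log2 scale (SD of 3 pairs). Col1a1 gave 1079, 2159 and 2767 CPM against 2017, 3047 and 2925 CPM, with overlapping sets and a log2 fold change of 0.49 ± 0.41 (SD of 3 pairs, adjusted p = 0.038). Both calls were lost in the fit of all 9 libraries. Postn (periostin) rose by 0.56, while Tnc (tenascin C) fell by 0.52 and Plod2, a collagen lysyl hydroxylase, by 0.59. Spp1 (osteopontin), a secreted ligand of integrins and CD44, fell from 6583, 4827 and 3824 CPM to 3089, 2316 and 2579 CPM, without overlap (log2 fold change -0.91 ± 0.29, SD of 3 pairs, adjusted p = 0.0014), and Cd44 rose by 0.30. The plasminogen activators Plat and Plau fell by 0.79 and 0.63, and the receptor Plaur by 0.28. Plat went from 68.8, 63.1 and 56.8 CPM to 40.2, 36.2 and 32.8 CPM, and its pair differences had an SD of only 0.014. Among proteases that cleave proteoglycans, Adamts5 and Adamts1 rose by 0.80 and 0.61. Of 15 integrin genes, 2 rose and 4 fell, with Itgb3 higher by 0.38 and Itga8 and Itga11 lower by 0.62 and 0.47.

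Of 17 cytokine and chemokine genes tested, 4 fell and 1 rose, while 10 had a positive and 7 a negative fold change, with a median of 0.01. The lower members were 2 in DESeq2 and 2 without libraries 4 and 6. Csf1, the macrophage growth factor, fell by 0.68, the interferon-induced chemokine Cxcl10 by 0.85 and Lif by 0.26, next to Spp1, while Ccl2 rose by 0.39. Cx3cl1 and Cxcl3 are not members of this list and are named for the size of their fall. Cx3cl1 (fractalkine), a membrane-bound chemokine with receptors on NK cells and monocytes, stood at 293.5, 179 and 78.2 CPM in libraries 1, 4 and 7 and at 150, 81.1 and 39.6 CPM in libraries 3, 6 and 9. Each pair fell by about the same factor although the pairs began at different levels, with a log2 fold change of -1.03 ± 0.10 (SD of 3 pairs, adjusted p = 9.7e-05). Cxcl3, a neutrophil chemokine, fell by 1.13 in the same manner, from 39.9, 18.4 and 3.51 CPM to 18.6, 7.91 and 1.77 CPM.

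A few of the genes through which NK cells and T cells recognise tumour cells were called, in both directions. Of 10 NK receptor ligand genes tested, Nectin2 and Pvr, the ligands of DNAM-1 and TIGIT, fell by 0.37 and 0.30 and 0 rose. Of 19 genes of MHC class I presentation, 4 rose and 2 fell, with a median of -0.00 that took either sign across the alternatives. B2m, the light chain of class I molecules, stood at 1293, 1332 and 1177 CPM in libraries 1, 4 and 7 and at 1539, 1464 and 1375 CPM in libraries 3, 6 and 9, a log2 fold change of 0.20 ± 0.06 (SD of 3 pairs, adjusted p = 0.046) whose call was lost without libraries 1 and 3, without 4 and 6 and in the fit of all 9 libraries. The class I transactivator Nlrc5 and the peptide editors Tapbp and Tapbpl rose by 0.33, 0.24 and 0.35, while the peptide pump gene Tap2 and the immunoproteasome gene Psmb8 fell by 0.43 and 0.27. Without libraries 4 and 6 the class I list had 0 higher and 2 lower members. Of 31 interferon response genes, 3 rose and 4 fell, and without libraries 4 and 6 the counts were 0 and 1. Over all genes tested, 6.12% were called higher and 6.8% lower. In the fifth of genes with the highest mean level these shares were 12% and 9.92%. Counts as small as those of these lists are therefore not read as a change of the lists.

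Epithelial keratins fell, and mesenchymal genes went both ways. Krt18 stood at 153, 109 and 78.5 CPM in libraries 1, 4 and 7 and at 91.5, 58.0 and 37.3 CPM in libraries 3, 6 and 9, a fall in each pair with overlapping sets (log2 fold change -0.90 ± 0.16, SD of 3 pairs, adjusted p = 0.00033). Its partner Krt8 fell by 0.40 and Dsp, a desmosomal protein, by 0.55, so that 3 of 9 tested epithelial genes fell and 0 rose. In the fit of all 9 libraries 1 of these was called. Of 17 mesenchymal genes 5 rose and 5 fell, with 10 negative fold changes and a median of -0.15, and the counts were 1 and 1 without libraries 4 and 6 and 2 and 2 without libraries 1 and 3. Among those called were Vim (vimentin), upward from 3648, 3730 and 3443 CPM to 4587, 4646 and 4049 CPM, Snai2, also upward, and Fn1 (fibronectin) and Mme, downward. Cdsn, which encodes corneodesmosin, an adhesive protein of cornified epithelium, fell without overlap of the sets. It stood at 55.1, 71.7 and 82.5 CPM in libraries 1, 4 and 7 and at 19.1, 25.4 and 27.5 CPM in libraries 3, 6 and 9, with a log2 fold change of -1.54 ± 0.04 (SD of 3 pairs, adjusted p = 2e-05).

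Few targets of YAP and TEAD were called. Most targets of the actin-regulated factor SRF had a negative fold change, though few were called. Ankrd1, a muscle ankyrin repeat gene, stood at 114.5, 115 and 114 CPM in libraries 1, 4 and 7 and at 86.8, 65.9 and 52.0 CPM in libraries 3, 6 and 9, and Nt5e (CD73) fell by 0.75. With Crim1 they made 3 of 23 YAP and TEAD targets that fell, and 0 rose. The list had 10 positive and 13 negative fold changes, with a median of -0.05. Without libraries 7 and 9 its counts were 4 higher and 3 lower. Ccn1 and Ccn2, widely used targets, were not called, with Ccn2 at -0.18. Of 19 actin and SRF targets, the focal adhesion genes Zyx, Vcl, Actn1 and Pdlim7 fell, by 0.20 to 0.41. The fold change was negative in 16 of the 19, and 15 were not called. The list's median difference was -0.05 in libraries 3 over 1, -0.09 in 6 over 4 and -0.29 in 9 over 7. Its median log2 fold change was -0.18, and -0.11 with length and GC as offsets. Of 18 TGF-beta and BMP genes tested, 3 rose and 2 fell, with Id3 higher by 0.51 and Id1 lower by 0.54. Of 14 genes tested in the WNT list 1 rose, the feedback inhibitor Axin2 by 0.44, and 1 fell, Tcf7 by 0.34. Heat shock genes gave 1 lower member of 14 (Hspb1) and NRF2 and haem response genes 2 lower (Hmox1 and Abcc1) and 1 higher (Bach1) of 25. Counts this small rest on few genes. Those of the WNT, heat shock and NRF2 lists are near the shares over all genes tested, 6.8% lower and 6.12% higher.

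Beyond the lists, the genes with the largest rise included Itgad, the integrin alpha D chain known from leukocytes, at 5.78, 6.91 and 5.09 CPM in libraries 1, 4 and 7 and 17.2, 19 and 12.7 CPM in libraries 3, 6 and 9. Its log2 fold change was 1.45 ± 0.13 (SD of 3 pairs, adjusted p = 0.00018). Rarres2 (chemerin) went from 19, 24.8 and 19.1 CPM to 54.4, 60.1 and 45.0 CPM, a log2 fold change of 1.34, with 33.6% of its exonic bases opposite Lrrc61. Pgm2l1, an enzyme of glucose bisphosphate synthesis, rose by 1.21 and Cyp26b1, which degrades retinoic acid, by 1.01. Kcnq1ot1, a long non-coding RNA antisense to Kcnq1, stood at 29.6, 13.6 and 15.1 CPM against 41.1, 44.5 and 43.1 CPM, and its log2 fold change of 1.21 ± 0.66 (SD of 3 pairs) moved with the share of long non-coding RNA given above, whose part was not tested. Ltbp2 and Hepacam2 rose by 1.00 and 1.29 with wide spread between pairs, and Ugt1a6b, which shares 60.6% of its exonic bases with Ugt1a7c, rose by 1.16. The largest fall among the called genes of at least 5 CPM was that of Cyp2f2, a cytochrome P450, from 37.5, 20.8 and 8.02 CPM to 12.8, 5.64 and 1.82 CPM. Cthrc1 and Kirrel3 were lower with log2 fold changes of -0.99 and -0.98.

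Markers of other cell types moved in few cases. The adipocyte genes Adipoq and Fabp4 rose. Adipoq had 6, 6 and 16 counts in libraries 1, 4 and 7 and 58, 41 and 21 in libraries 3, 6 and 9, and Fabp4 stood at 13.8, 12.4 and 6.97 CPM against 18.3, 18.2 and 14.2 CPM. These are 2 of 3 tested adipocyte genes, and their part in the rise of lipid genes was not tested. Cd68, a lysosomal protein abundant in macrophages, fell by 0.46. Of the 13 mitochondrially encoded genes tested, 0 were called, with median differences of -0.51, -0.33 and 0.24 in the 3 pairs, and of 9 replication-dependent histone genes 0 were called.

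Some calls named above rested on 1 pair or on the choice of libraries. Outside the lists whose counts without a pair are given above, the calls of Vcl, Cxcl10, Dsp, Itgb3, Nlrc5, Tapbpl, Vim, Pvr, Hmox1, Bach1, Tcf7, Crim1, Pold1, E2f2 and Pmaip1 were lost without libraries 4 and 6, and those of Tm7sf2, Polr1e and Abcc1 as well. The calls of Vim, Bach1, E2f2 and Crim1 were also lost without libraries 1 and 3, and those of Cd68 and Pold1 without libraries 7 and 9. In the fit of all 9 libraries the calls of Rpl18, Hspb1, Itga11, Cd68, Postn, Cd44, Pold1, Id1, Ankrd1 and Crim1 were lost. The directions stayed the same in each of these fits. Without libraries 4 and 6 the counts of higher and lower members were 3 and 5 for arrest and quiescence, 1 and 2 for p53 targets, 0 and 2 for actin and SRF targets, and 2 and 2 for matrix genes other than collagens. In the fit of all 9 libraries they were 0 and 2 for collagens, 2 and 2 for proteases and 0 and 1 for YAP and TEAD targets.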

How the data were processed

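The series holds 9 poly(A) RNA libraries, of which 6 entered the fit. The authors deposited 1 table of expected counts per gene (estimated by RSEM, whole numbers, not normalised) with 55492 rows. Per the submitters' processing notes, the reads were handled with STAR 2.7.8a, RSEM 1.3.3, FastQC 0.11.8 and cutadapt 2.3 on build GRCm38. The use of strand is not stated in the labels, so overlapping and antisense genes cannot be told apart, and RSEM divides reads of near-identical genes by likelihood. All 9 count columns matched 1 title each.

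Genes were filtered by edgeR 4.0.16 in R 4.3.3 (minimum count 10, minimum total 15), scaled by TMM and tested with a quasi-likelihood fit of title set plus pair, with Benjamini-Hochberg adjustment over 13986 genes at 0.05. Log2 CPM used a prior count of 2. Low genes are limited by depth, since 3 counts are worth between 0.0727 CPM (library 7) and 0.16 (library 9). The fit was tested on simulated data. Alternatives were no replicate block, other scaling and filters, DESeq2 1.42.0, all 9 libraries, thinning, length and GC offsets, and leaving out each pair. Gene positions, lengths and overlaps come from GENCODE M21, and promoters from RefSeq GRCm38.p6.

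The members and gene lists were chosen with earlier results of these data known. Genes named are the 10 with the largest change each way among called genes of at least 5 CPM with 1 direction in all pairs, leaving out predicted genes, the 3 called members of largest change of each list, and 25 others. Any further list member was picked for the text with its values in view, after they were seen.

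The pairing follows title numbers, not a label. Of 3 pairs, 2 correlated in their deviations.
Some genes that the rule takes are not reported here.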

Additional observations from a re-analysis of the deposited data

How the results depend on the processing

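All counts depend on the pairing: with no replicate block 0 genes were higher and 0 lower. Of the libraries paired by title, 4 and 6 did not correlate best with each other. That is a hint from the data and not the design, and a weak one for libraries near the middle of their set. Leaving out 1 pair gave 462 to 1478 higher and 481 to 1571 lower genes. Without a filter on low counts 1623 genes were lower, among 25280 tested. The fit of all 9 libraries gave 618 lower genes. Asking for at least 1.5-fold left 184 higher and 197 lower. The cause of these shifts was not tested, except that the last counts a subset of the calls. Other scaling, a filter at 1 CPM, DESeq2 (674 higher, 697 lower), thinning to the smallest total and the added length and GC offsets stayed within 1.5 times of 856 and 951. Of the 110 called genes named by rule, 110 lost the call without the block, 30 without libraries 4 and 6, 24 with all 9 libraries and 13 with DESeq2, and none of them reversed its direction in the alternatives run, while Slc7a11, Sox2, Vwf, Pdgfra and Klrb1c, which were not called, took either sign. Library 9, with the fewest counts, limits genes near 0.16 CPM.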

Other observations

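Libraries 2, 5 and 8 take no part in the comparison, and their values stand here beside it, scaled with all 9 libraries together. Mki67 was at 63.1, 107 and 151.5 CPM in libraries 2, 5 and 8, above both other libraries of the same run of titles in each case. Abcg2 was at 75.1, 76.2 and 56.7 CPM, below libraries 3, 6 and 9. Cdsn was at 11.7, 12.1 and 15.7 CPM and Areg at 6.56, 10.5 and 16.2 CPM, below all 6 libraries compared. Nothing was tested on these values.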
